A study of Mus musculus with 31 samples.

Results

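Bone marrow-derived macrophages that lack the adaptor MyD88 were exposed either to purified lipopolysaccharide (LPS) or to live Escherichia coli, and the comparison described here is the response to the bacteria minus the response to LPS within the MyD88-/- genotype. Its members are the 4 MyD88-/- mice with arrays titled as E. coli against mock and the 4 MyD88-/- mice with arrays titled as LPS against mock, which hold 15 of the 31 arrays of the series. A probe entered the comparison when it had a value in 3 or more mice of both groups, which left 8086 of 13872 probes, for 6559 named genes, and 5876 of these had values in all 4 mice of both groups. The other 16 arrays are the same stimuli in wild-type C57BL/6J macrophages.

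All cells came from the marrow of mice 6 to 8 weeks old, wild type or MyD88-deficient, which the labels place together under C57BL/6J. They were grown for 8 days in medium with L929-conditioned supernatant as a source of CSF-1. The 2 stimuli lasted 2 h each: re-purified LPS of E. coli O111 at 10 ng/mL, or live log-phase E. coli at 1 bacterium per macrophage. The reference on every array was RNA of medium-treated (mock) cells of a mouse of the same number. Whether the LPS and the E. coli arrays of a number used the same animal and the same mock RNA is not stated in the labels; if they did, the 2 responses share their control. The MyD88 deletion is carried by stimulated and mock cells alike, so that a ratio of stimulated over mock does not show it. How the deletion was made and whether the MyD88-deficient mice were littermates of the wild types are not given in the sources used here.

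MyD88 is the adaptor that most Toll-like receptors use to reach NF-kB and MAP kinases. TLR4, the receptor of LPS, signals through MyD88 and, from endosomes, through a second adaptor, TRIF, which activates IRF3, interferon beta and, more slowly, NF-kB. A live Gram-negative bacterium carries LPS and in addition lipoproteins, flagellin, DNA and RNA, whose Toll-like receptors depend on MyD88 except for TLR3, and it can reach cytosolic sensors. In MyD88-/- macrophages the comparison of E. coli with LPS therefore asks how the responses to these stimuli differ when MyD88 is missing. How much LPS the bacteria carried is not given in the sources used here, and its match to the purified dose was not tested. In either genotype the subtraction does not separate the dose of LPS from the kind of stimulus.

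Every value below is a log2 ratio of stimulated over mock cells, so that 1 log2 unit is a 2-fold change, and a difference is the E. coli ratio minus the LPS ratio. The direction of the deposited ratios is likely, not settled: it follows the titles, which name the stimulus against mock. The dye-swapped array of each of the 7 complete pairs correlated positively with its partner (r across probes 0.256 to 0.444, probes not being independent replicates), which shows that both orientations were deposited in the same sense and not which sense it is. Each array gave 6753 to 10391 values, and array medians lay between -0.05 and 0.00. Most mice were measured on an array pair of opposite dye orientation, but MyD88-/- LPS mouse 4 had 1 array only, and it stood apart for several genes. A 2-colour ratio gives no transcript level, and in RNA of a whole dish fewer cells of a type and less RNA per cell cannot be told apart. The number of arrays limits the precision: the median standard error of the difference was 0.31, and the median half-width of its 95% interval was 0.67.

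No probe passed the test of a difference between E. coli and LPS in MyD88-/- macrophages. In limma's moderated test over 8086 probes, 0 passed a Benjamini-Hochberg adjusted p of 0.05 (0% called), and the smallest unadjusted p was 0.000728. At an unadjusted p under 0.05 there were 207 probes (2.56%), 105 higher with E. coli and 102 lower. That share is below the 0.05 that this threshold passes on average where no probe differs. The mouse values of the 2 stimuli did not overlap for 220 probes (2.72%), with E. coli above LPS for 119 and below it for 101. From the 5th to the 95th percentile the differences ran from -0.71 to 0.68, with a median of 0.02. For 4666 probes (57.7%) the 95% interval of the difference lay within 1 log2 unit of 0 on both sides, so that a 2-fold difference lay outside it. For the remaining probes the interval reached a 2-fold difference in at least 1 direction.

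Both stimuli moved many genes against mock. With E. coli 449 probes were higher (5.55%) and 312 lower (3.86%), and with LPS 372 were higher (4.6%) and 319 lower (3.95%) at an adjusted p under 0.05 in limma. Called under both stimuli were 523 probes, which is 68.7% of the E. coli calls and 75.7% of the LPS calls, and the 2 responses share their mock RNA if they share their animals. Of these, 312 were higher with both, 211 were lower with both and 0 had opposite signs. For 386 of the 523 (73.8%) the interval of the difference lay within 1 log2 unit of 0. A call with E. coli alone was made for 238 probes and with LPS alone for 168, but the difference itself had an unadjusted p under 0.05 for only 34 and 21 of them, and passed adjustment for 0. Without MyD88-/- E. coli mouse 2, the E. coli calls fell to 484.

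**Figure D1:**
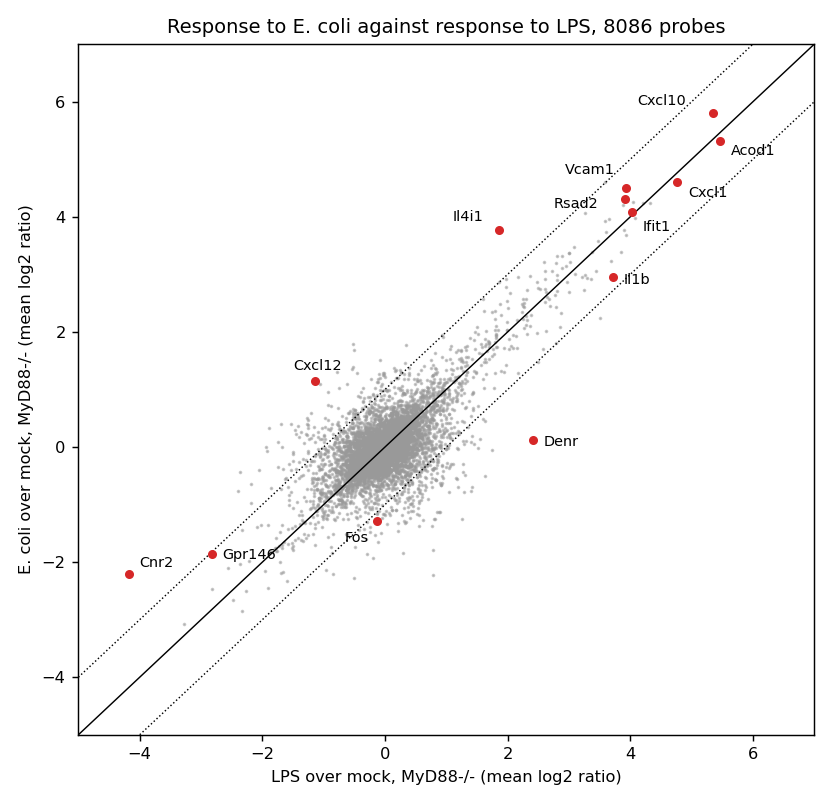
Mean log2 ratio over mock of each of 8086 probes in MyD88-/- macrophages, LPS on the horizontal axis and E. coli on the vertical axis. The solid line marks equal responses and the dotted lines a difference of 1 log2 unit; red points are named genes. Most of the strongly induced genes lie close to the solid line, with Cxcl10 at 5.35 with LPS and 5.81 with E. coli, while Il4i1 lies above it and Denr below it.

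The 12 genes with the highest mean of both responses were taken from the probes called with both stimuli, so that their rise with both was fixed by that choice. The choice also favours genes that were high with both, so that their values in each mouse are a description. Cxcl10, a chemokine that attracts activated T cells and a classical target of interferon and IRF3, had ratios of 5.01, 4.55, 5.46 and 6.37 in the 4 LPS mice and 5.81, 6.52, 5.30 and 5.59 in the 4 E. coli mice. Its groups overlapped, and the difference was 0.46 (-0.37 to 1.28), where the range in brackets here and below is the 95% interval. It was 0.80 (0.03 to 1.57) without LPS mouse 4, and it turned to -0.04 when the unswapped arrays were used alone. Acod1, which makes itaconate, had 4.78, 6.13, 5.35 and 5.58 with LPS and 5.32, 5.28, 5.14 and 5.53 with E. coli, a difference of -0.14 (-0.74 to 0.45). Its E. coli mice all lay inside the range of the LPS mice. Cxcl1, a neutrophil-attracting chemokine, had 3.24, 5.29, 3.97 and 6.54 with LPS and 3.65, 4.09, 4.90 and 5.77 with E. coli; mouse 4 was the highest in both groups. Irf1, an interferon-regulated transcription factor, averaged 4.33 with LPS and 4.23 with E. coli. The other genes among the 12 highest were Ccl5 (4.21 with LPS and 4.24 with E. coli), Vcam1 (3.93 and 4.49), Gpr84 (4.05 and 4.25), Rsad2 (3.92 and 4.31), Gbp2b (3.59 and 4.61), Ifit1 (4.02 and 4.07), Clec4e (3.88 and 4.21) and Icosl (4.08 and 3.97). The groups of mice overlapped for each of the 12. The LPS call of Gbp2b was lost when values at the floor of the deposited scale were kept and not set to missing.

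The 250 bases before the start of the 3 highest of these genes, and of Il4i1, which is described further on, are shown because the former rose together under both stimuli and the latter was further apart. They are RefSeq sequences of build GRCm38.p6, and 10 of the 12 highest genes had an entry. Capitals mark matches, on either strand, to GGGNNNNNCC (read on the other strand as GGNNNNNCCC), a loose pattern of NF-kB sites, or to GAAANNGAAA (on the other strand TTTCNNTTTC), a loose pattern of interferon response elements.
Cxcl10, chr5:92348890-92349139, - strand: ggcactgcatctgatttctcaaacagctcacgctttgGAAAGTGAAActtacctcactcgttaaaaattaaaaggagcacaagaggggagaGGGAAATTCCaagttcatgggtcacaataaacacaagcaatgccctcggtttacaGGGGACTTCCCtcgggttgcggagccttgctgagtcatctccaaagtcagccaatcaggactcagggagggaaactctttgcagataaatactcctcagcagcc
Acod1, chr14:103046762-103047011, + strand: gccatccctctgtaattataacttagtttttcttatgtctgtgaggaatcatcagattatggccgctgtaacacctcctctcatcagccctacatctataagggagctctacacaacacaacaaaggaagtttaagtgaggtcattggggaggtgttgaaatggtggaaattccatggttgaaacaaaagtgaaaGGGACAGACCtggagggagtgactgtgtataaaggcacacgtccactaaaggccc
Cxcl1, chr5:90890995-90891244, + strand: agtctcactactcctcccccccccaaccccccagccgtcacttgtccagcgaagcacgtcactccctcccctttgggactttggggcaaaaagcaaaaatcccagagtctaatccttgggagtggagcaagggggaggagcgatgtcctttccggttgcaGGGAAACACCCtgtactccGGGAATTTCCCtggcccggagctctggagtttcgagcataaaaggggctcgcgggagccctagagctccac
Il4i1, chr7:44836038-44836287, + strand: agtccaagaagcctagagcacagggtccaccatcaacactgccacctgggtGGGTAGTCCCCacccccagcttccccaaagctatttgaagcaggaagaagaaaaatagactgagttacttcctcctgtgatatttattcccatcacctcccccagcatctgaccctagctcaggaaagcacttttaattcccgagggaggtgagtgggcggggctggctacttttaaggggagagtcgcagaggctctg
The first pattern occurs in 45.8% of 32851 promoters of the same length and the second in 2.98%. The window of Cxcl10 held 2 runs of the first pattern and 1 match to the second, with no base in common. Acod1 held 1 run of the first, Cxcl1 held 2 and Il4i1 held 1, and these 3 windows held 0 matches to the second. A match is a string of letters and not a shown binding site.

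**Figure D2:**
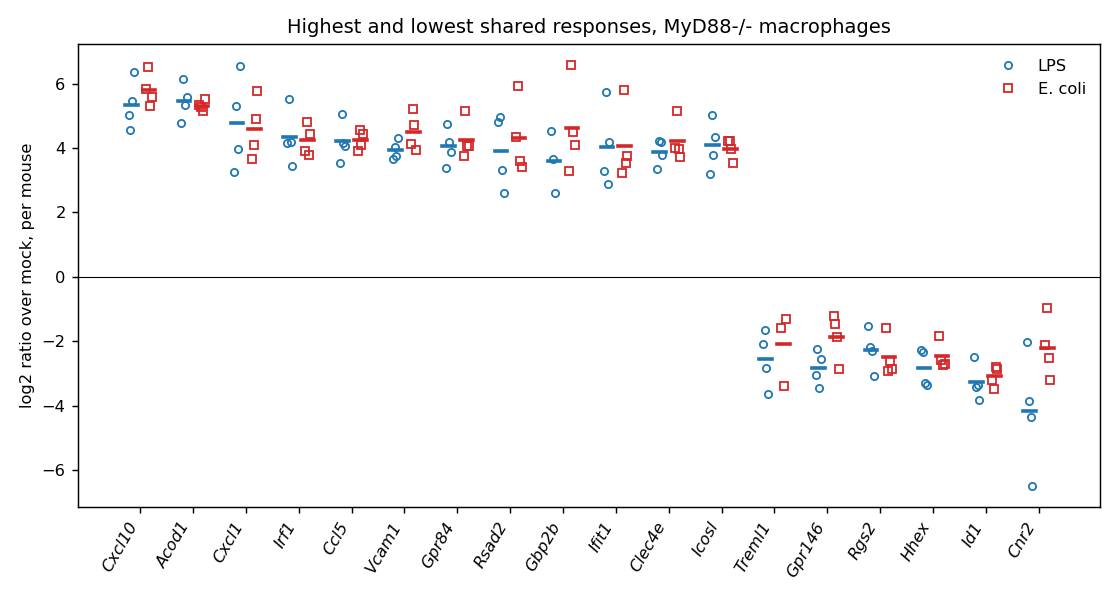
Log2 ratio over mock in each MyD88-/- mouse for the 12 genes with the highest and the 6 with the lowest mean of both responses; blue circles are LPS mice, red squares E. coli mice and bars their means. The groups overlap for every gene. The LPS mice of Cnr2 spread from -6.49 to -2.04.

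Cytokine genes rose with both stimuli. All 7 tested members of a list of 20 proinflammatory cytokines and their antagonists were called higher under both stimuli, beside 312 of all 8086 probes. None of the 7 passed the test of the difference. Of their differences 4 were above 0, with a median of 0.12 beside 0.02 over all probes. Tnf, the early inflammatory cytokine, had ratios of 3.20, 3.54, 3.76 and 3.87 with LPS and 3.40, 4.21, 3.88 and 4.24 with E. coli. The groups overlapped, and the difference of 0.34 (-0.31 to 0.99) had an interval that just excluded a 2-fold one in either direction. Without LPS mouse 4 it was 0.43 (-0.29 to 1.15), and the interval reached a 2-fold difference. Il1a had 1.97, 3.94, 2.99 and 4.29 with LPS and 2.59, 2.20, 2.43 and 4.52 with E. coli, and the highest of each group was mouse 4. Il1rn, the antagonist of its receptor, had 1.99, 1.99, 1.92 and 0.87 with LPS and 2.09, 2.41, 1.59 and 1.21 with E. coli. For Il1rn mouse 4 was the lowest with both stimuli. Il1b had 1.50, 3.27, 2.88 and 7.21 with LPS, where mouse 4 with its single array stood highest, and 1.74, 2.34, 3.80 and 3.95 with E. coli. The difference of -0.76 (-2.73 to 1.22) became 0.41 without LPS mouse 4, and a second probe named Il1b was called under neither stimulus (-0.30 with LPS and -0.18 with E. coli). Csf1, the macrophage growth factor, averaged 3.84 with LPS and 3.38 with E. coli; Il15 averaged 3.01 and 3.22; and the anti-inflammatory Il10 2.23 and 2.35. The Il10 call with LPS was lost under 11 of the 24 alternatives that could be run for it, among them without LPS mouse 2 or 3. Leaving out LPS mouse 4, which had no Il10 value, left the ratio at 2.23 and moved only the adjusted p (0.0544 in limma). The Il10 call with E. coli was lost without E. coli mouse 3 or 4. The Il1b call with E. coli was lost without E. coli mouse 3 or 4 too. The list's median difference ran from -0.65, without LPS mouse 1, to 0.14 over the alternatives, so that its direction was not stable. Il6 and Il12b had too few mice to be tested.

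Chemokines rose with both stimuli in part. Of 19 tested of 27 listed, 7 were called higher with both, beside 312 of all 8086 probes. With LPS alone 2 (Ccl2 and Ccl3) were called higher and 1, Cxcl14, lower (-0.81, with -0.57 for E. coli). The median difference was 0.04, and 11 of 19 were above 0. Cxcl2, which attracts neutrophils, had 1.56, 2.95, 3.03 and 1.96 with LPS and 2.51, 1.86, 2.37 and 2.41 with E. coli, a difference of -0.09 (-0.73 to 0.55). Ccl5 had 3.54, 5.05, 4.16 and 4.07 with LPS and 3.91, 4.55, 4.08 and 4.44 with E. coli. For both genes the E. coli mice all lay inside the range of the LPS mice, and the Ccl5 difference was 0.04 (-0.63 to 0.71). Ccl4 had 3.13, 3.40, 3.31 and 0.86 with LPS and 3.37, 2.24, 1.85 and 2.79 with E. coli, the low value being that of LPS mouse 4. Ccl3, from the same family, had 1.22, 1.29, 0.65 and 3.94 with LPS, the high value being that of mouse 4, and 1.74, 0.19, 1.00 and 1.18 with E. coli. Without that mouse its LPS ratio was 1.05 and still called, and its E. coli ratio was called too. Ccl2, which recruits monocytes, averaged 0.96 with LPS and 0.82 with E. coli and was called with LPS, but no longer without LPS mouse 1, 3 or 4. Its E. coli ratio had an adjusted p of 0.0545 in limma and was called under 6 of the alternatives. Ccl9 (1.23 and 1.49) and Cxcl16 (0.94 and 0.96) were called with both. Ccl7 (0.16 and -0.02) and Ccl17 (-0.10 and 0.40) were called with neither. The gap of Cxcl12 is given with the most separated probes.

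Interferon-stimulated genes had the highest median difference of the 22 gene lists, E. coli above LPS, though no member passed the test. Of 65 listed genes 48 were tested. With E. coli 30 were called higher and with LPS 21, beside 5.55% and 4.6% of all probes. These 21 were all among the 30, while Irf8 was called lower with both. The 9 called with E. coli alone were Irf5, Irf7, Stat2, Isg20, Usp18, Dhx58, Eif2ak2, Daxx and Ifnar1, and a call under 1 stimulus alone does not show a difference. The Stat2 call was lost under 5 of the 26 alternatives, among them without E. coli mouse 1, 2 or 4, and Irf7 was called with LPS too under 8. The difference was above 0 for 39 of 48 members, beside 52.8% of all probes, with a median of 0.27 beside 0.02. The difference had an unadjusted p under 0.05 in limma for 1 of the 48, Dhx58, beside 2.56% of all probes, and was called for 0. The group's median ratio per mouse was 0.64, 1.05, 0.40 and 0.62 in the LPS mice and 0.79, 1.63, 0.92 and 0.81 in the E. coli mice. The ranges overlapped, and mouse 2 was the highest with each stimulus. Without E. coli mouse 2 the median difference was 0.08, the lowest of all alternatives, and it stayed above 0 in each of the 26.

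Ifit3, an antiviral effector, had 1.97, 3.43, 1.60 and 0.90 with LPS and 2.89, 4.21, 2.80 and 1.78 with E. coli, a difference of 0.95 (-0.22 to 2.11). Ifit2, of the same family, had 2.80, 2.90, 1.55 and 0.90 with LPS and 3.80, 3.87, 1.22 and 1.79 with E. coli, a difference of 0.63 (-0.77 to 2.04). Without LPS mouse 4 these differences were 0.59 and 0.26, and without E. coli mouse 2 they were 0.52 and 0.24, for Ifit3 and Ifit2. In both genes the mice of a stimulus lay further apart than the means of the stimuli, and the groups overlapped. For Ifit3 each E. coli value lay above the LPS value of the same mouse number. With mouse number as a block, limma's unadjusted p was 0.00144 for Ifit3 and 0.108 for Ifit2 (adjusted p 0.9997 for each). The labels do not show that the numbers pair the mice. Rsad2, which encodes viperin, had 4.80, 4.96, 3.31 and 2.61 with LPS and 4.33, 5.91, 3.60 and 3.41 with E. coli. Ifit1 had 3.28, 5.73, 2.89 and 4.17 with LPS and 3.23, 5.79, 3.53 and 3.74 with E. coli. Mouse 2 was the highest of its group in Rsad2 and Ifit1 under each stimulus. Mx2, an antiviral GTPase, had 2.34, 1.68, 1.99 and 1.95 with LPS and 2.25, 2.77, 2.57 and 2.52 with E. coli, and 3 of the 4 E. coli mice stood above all LPS mice. The call of Ifit2 with LPS was lost without LPS mouse 1 or 2, and that of Mx2 without LPS mouse 1. Dhx58, which encodes the RNA sensor LGP2, had 0.50, 0.38, 0.18 and 0.11 with LPS and 0.49, 0.92, 0.72 and 0.54 with E. coli, a difference of 0.37 (0.01 to 0.74), with an unadjusted p of 0.0427 (limma; adjusted p 1.00). Adar, the RNA editing enzyme, had -0.48, 0.69, -0.46 and 0.62 with LPS and 0.59, 2.07, 1.01 and 0.83 with E. coli. Stat2, a signalling factor of the interferon receptor, had 0.28, 1.07, 0.21 and -0.32 with LPS and 1.00, 1.81, 0.12 and 0.74 with E. coli. For Adar 2 of the LPS mice were below 0 while all E. coli mice were above it, yet the highest LPS mouse (0.69) exceeded the lowest E. coli mouse (0.59). Ifnb1 itself, which encodes interferon beta, was called with neither stimulus: the ratios were 0.05, -0.16, 1.49 and -0.11 with LPS and 0.17, 0.28, 0.32 and 0.25 with E. coli. Irf7, which amplifies the interferon response, had 1.52, 1.20, 0.30 and 0.36 with LPS and 0.71, 2.11, 0.76 and 0.63 with E. coli, and its E. coli call was lost without mouse 2, the highest. Cmpk2 (3.00 with LPS and 3.36 with E. coli), Gbp3 (3.66 and 3.96), Tgtp1 (2.89 and 3.32), Igtp (1.50 and 2.09) and Ifi47 (1.74 and 2.34) were called with both. Isg15 had too few mice to be tested.

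NF-kB subunits, their inhibitors and upstream adaptors mostly rose with both stimuli. Of 21 tested of 34 listed, 13 were called higher with both, beside 312 of all 8086 probes, 1 with E. coli alone and 1 with LPS alone. Of the 21 differences 10 were above 0, with a median of -0.07. Tnfaip3, the ubiquitin-editing inhibitor A20, had 3.10, 4.28, 3.76 and 3.58 with LPS and 1.81, 3.77, 3.34 and 4.02 with E. coli, a difference of -0.44 (-1.91 to 1.02) that turned to 0.03 without E. coli mouse 1. Relb, an NF-kB subunit, had 2.27, 3.55, 2.81 and 4.83 with LPS and 2.42, 3.09, 2.68 and 3.45 with E. coli, and Traf1, an adaptor of TNF receptors, had 2.80, 3.16, 4.43 and 5.33 with LPS and 2.54, 3.77, 3.63 and 4.81 with E. coli. The groups overlapped for all 3, and mouse 4 was the highest with both stimuli for Relb and Traf1. The inhibitors Nfkbie (2.96 with LPS and 3.15 with E. coli) and Nfkbib (1.80 and 2.10), and the subunit Nfkb2 (2.49 and 2.77), rose with both. Birc3, an inhibitor of apoptosis, had 3.01, 2.58 and 2.16 in 3 LPS mice and 2.51, 1.33, 2.19 and 0.79 in 4 E. coli mice, and the difference of -0.88 (-2.19 to 0.43) was the lowest of the list, but turned to 0.26 with the unswapped arrays alone. Its E. coli call was lost without E. coli mouse 1 or 3. Nfkbia had too few mice to be tested.

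Of the immediate early genes and MAPK feedback genes 30 of 45 were tested. With both stimuli 8 were called higher and 4 lower, beside 312 and 211 of all 8086 probes. With E. coli alone 1 was higher and 1, Fos, lower, and with LPS alone 1 was higher. The median difference was -0.04. Egr2, an early transcription factor, had 1.95, 3.80, 2.88 and 4.43 with LPS and 1.86, 2.71, 3.74 and 3.63 with E. coli, and Gadd45b, a stress-response gene, had 2.28, 3.47 and 3.25 in 3 LPS mice and 1.97, 2.97, 2.79 and 3.04 in the E. coli mice. The 2 groups overlapped for both. Jun (-1.72 with LPS and -1.99 with E. coli), Klf4 (-1.47 and -1.37), Cebpd (-1.18 and -1.22) and Gadd45a (-1.34 and -1.63) were lower with both. Fos, the AP-1 subunit, had -0.62, 0.21, -0.29 and 0.16 with LPS and -0.41, -0.96, -1.50 and -2.26 with E. coli. It fell with E. coli (adjusted p 0.0198 in limma, a call lost without E. coli mouse 3 or 4) and was near 0 with LPS. The difference of -1.15 (-2.13 to -0.17) had an unadjusted p of 0.025 and an adjusted p of 1.00. Of the SOCS and JAK-STAT feedback genes 15 of 25 were tested. Socs2 had -0.57, -1.44 and 0.44 in 3 LPS mice and 1.64, 1.06 and 1.48 in 3 E. coli mice, which did not overlap, and Socs3 had 0.47, 1.07 and 0.16 in 3 LPS mice and -2.11, -1.34, -0.26 and 0.53 in the E. coli mice, which did. The responses of these 2 inhibitors of cytokine signalling to either stimulus were not called, and their differences, 1.92 (0.35 to 3.48) and -1.36 (-2.91 to 0.19), passed no adjustment.

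Toll-like receptors, their co-receptors and adaptors had the lowest median difference of the 22 lists, -0.21, with 4 of 14 tested members above 0. Tlr2, the lipoprotein receptor, rose with both stimuli, with 2.62, 3.35, 3.04 and 3.30 in the LPS mice and 2.97, 3.77, 3.39 and 3.77 in the E. coli mice; the groups overlapped. Tlr1 was called with both (1.49 with LPS and 1.28 with E. coli). The probe named Myd88 had 1.09, 1.99, 0.87 and 4.70 with LPS and 0.74, 1.21, 1.51 and 1.70 with E. coli. It was called with LPS, where the mean of 2.16 became 1.32 without mouse 4, and with E. coli it was called under 2 of the 26 alternatives, 1 of them without that mouse. Which part of the deleted gene the probe covers is not given in the sources used here, so that it does not check the genotype. Ly86, a co-receptor of the LPS response, had -0.13, 0.05, -0.02 and 2.80 with LPS, where mouse 4 stood apart, and -0.56, -0.23, 0.07 and 0.31 with E. coli. Of the cytosolic sensors and inflammasome genes 12 of 30 were tested, and 6 were called higher with both stimuli, beside 312 of all 8086 probes. Of the 12 differences 9 were above 0, and the median was 0.15. Pycard, the inflammasome adaptor, averaged 1.32 with LPS and 1.68 with E. coli, and Casp4, the mouse caspase-11 that binds cytosolic LPS, averaged 1.41 and 1.54. Zbp1, a nucleic acid sensor, had -0.23, 0.90, -0.83 and -1.82 with LPS and 0.22, -0.10, 1.37 and 0.58 with E. coli and was called with neither.

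Among antimicrobial and inflammatory effectors, 28 of 46 were tested, and 12 were called higher with both stimuli, beside 312 of all 8086 probes. With LPS alone 1, Cfb, was called higher, and the median difference was 0.07. Il4i1, a secreted amino acid oxidase whose promoter window is given with those of the highest genes, had the widest gap of the 28. Its ratios were 1.75, 1.78 and 2.07 in 3 LPS mice (mouse 4 had no value) and 3.78, 3.82, 4.44 and 3.06 in the 4 E. coli mice. Every E. coli mouse lay above every LPS mouse. The difference was 1.91 (0.45 to 3.36), which is 3.75-fold, with an unadjusted p of 0.0139 and an adjusted p of 1.00 in limma, so that it was not called. It was 1.21 with the unswapped arrays alone, and 2.15 with mouse number as a block (limma, unadjusted p 6.45e-05, adjusted p 0.521). The LPS response of Il4i1 was called (adjusted p 0.036), and no longer without any 1 of the 3 LPS mice, while the E. coli response had an adjusted p of 5.48e-05. Clec4e, the receptor Mincle, had 3.36, 4.21, 4.18 and 3.78 with LPS and 4.00, 5.15, 3.96 and 3.72 with E. coli. Saa3, an acute-phase protein, had 2.68, 3.03, 3.24 and 2.90 with LPS and 3.16, 2.42, 2.72 and 3.19 with E. coli, and Mmp13, a collagenase, 2.15, 2.78, 2.24 and 1.88 with LPS and 1.58, 3.50, 2.04 and 2.87 with E. coli. All 3 rose with both stimuli, with overlapping groups. Ch25h, which makes 25-hydroxycholesterol, averaged 3.27 with LPS and 4.06 with E. coli; Sod2, the mitochondrial superoxide dismutase, averaged 2.80 and 2.71. Cfb, complement factor B, had 1.07, 2.02 and 0.79 in 3 LPS mice and -0.41, 1.09, 0.94 and 0.14 in the E. coli mice, and its LPS call was lost without LPS mouse 1 or 2. Nos2 and Ptgs2 had values in too few LPS mice to be tested.

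Genes of apoptosis and survival split in no direction, with 15 of 30 differences above 0 and below 0 each. Bcl2l11, which encodes the death-promoting protein Bim, rose with both stimuli, with 3.06, 4.47 and 2.99 in 3 LPS mice and 2.62, 2.17, 2.44 and 1.74 in the E. coli mice. All E. coli mice lay below all LPS mice, the difference was -0.78 without LPS mouse 2, and as reported it was -1.26 (-2.59 to 0.06), with an unadjusted p of 0.0603 and an adjusted p of 1.00 in limma. Bcl2a1a, a survival gene with near-identical copies whose signals a probe may mix, had 2.03, 3.06, 2.50 and 2.87 with LPS and 1.57, 2.31, 1.62 and 2.54 with E. coli. Costimulatory genes Icosl (4.08 with LPS and 3.97 with E. coli), Tnfsf4 (3.60 and 3.74) and Cd83 (2.81 and 2.98) rose with both. Of the 25 tested genes of costimulation and antigen presentation, 8 were called higher with both, beside 312 of all 8086 probes, and 1, Tap2, with E. coli alone.

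Lists chosen with the uptake of live bacteria in mind showed differences near 0. The median was 0.00 for 22 tested phagocytic, scavenger and Fc receptors, 0.05 for 24 genes of actin and membrane traffic, 0.04 for 27 lysosome and proton pump genes and 0.00 for 22 oxidative stress genes. The interval lay within 1 log2 unit of 0 for 18, 20, 25 and 17 of their members. Marcks (1.64 with LPS and 1.27 with E. coli) and Marcksl1 (3.44 and 3.05), which link membranes to actin, rose with both stimuli; Atp6v1c1, a subunit of the proton pump, fell with both (-0.80 and -1.03). Hmox1, heme oxygenase, fell with both, with -0.08, -1.31, -0.56 and -0.76 with LPS and -0.52, -0.67, -0.70 and -0.49 with E. coli, but its E. coli call ended under 18 of the 26 alternatives and its LPS call without LPS mouse 2, 3 or 4. The median was 0.10 for 19 genes of glycolysis, the pentose phosphate pathway and hypoxia, 0.02 for 37 of the respiratory chain, 0.03 for 24 of lipid handling, -0.06 for 43 of the cell cycle, -0.02 for 46 ribosomal proteins, 0.02 for 31 chaperones and 0.02 for 39 of the proteasome and ubiquitin conjugation. Hk2, hexokinase 2 (1.21 and 1.53), and Slc2a1, the glucose transporter GLUT1 (0.58 and 0.86), rose with both. The probe named Atp5o rose with both (2.78 and 3.19), and of the other respiratory chain genes 1, Atp5d, was called in 1 of its 2 probes, with E. coli alone.

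Antigen presentation and upkeep genes with the smallest unadjusted p of their lists were, with few exceptions, called with neither stimulus, and they are named for how far the stimuli lay apart. H2-Ab1, a chain of MHC class II, had 0.10, 0.77, 0.14 and 0.45 with LPS and -0.72, 0.43, 0.16 and -2.15 with E. coli, a difference of -0.93 (-1.83 to -0.03). It was -0.41 without E. coli mouse 4, the lowest, and -0.22 with the unswapped arrays alone. Cd86, a costimulatory ligand of T cells, had -0.49, 0.17, 0.39 and 1.62 with LPS and 0.40, -0.34 and -1.77 with E. coli, and Cd274, which encodes the inhibitory ligand PD-L1, had 1.10, -0.55 and 0.20 with LPS and 0.43, 1.45, 1.07 and 1.01 with E. coli. The groups overlapped for all 3, with E. coli lower on average for H2-Ab1 and Cd86 and higher for Cd274. Rpl3, a ribosomal protein, had -0.27, 1.58 and 0.32 with LPS and -0.81, -0.76 and -0.62 with E. coli, which did not overlap, against a median difference of -0.02 over the 46 ribosomal proteins. Vegfa, the hypoxia-regulated angiogenic factor, differed by 1.27 (-0.48 to 3.02), which was 0.78 without LPS mouse 4, 0.63 without E. coli mouse 4 and 0.24 with floor values kept. Rab11a, a GTPase of recycling endosomes, differed by -0.44 (-0.86 to -0.01). Of the lipid genes, Apoc2, an apolipoprotein, differed by -0.69 (-1.28 to -0.09), and the sterol synthesis genes Mvk and Fdft1 by 1.03 (-0.05 to 2.11) and 0.40 (-0.03 to 0.82); Fdft1 was called with E. coli (0.63). With the unswapped arrays alone the difference was -0.28 for Apoc2 and -0.22 for Fdft1, and the Fdft1 call was lost there and without E. coli mouse 2 or 4. The mitotic genes Ccnb2 (-0.47, -0.95 to 0.01), Cenpa (-0.50, -1.03 to 0.04) and Bub1b (-0.56, -1.28 to 0.15) were lower with E. coli on average, as were 27 of the 43 cell cycle genes. Zfp36l2, which destabilises messenger RNAs, had -0.59, -1.76, -2.02 and 0.40 with LPS and -1.21, 0.85, 0.42 and 0.28 with E. coli. Lamp1, a lysosomal membrane protein, differed by 0.21 (-0.10 to 0.51) and the lysosome-bound Cd68 by 0.29 (-0.10 to 0.68), both inside 1 log2 unit. The 2 probes of Actb, a cytoskeletal actin, disagreed: 1 differed by 0.04 (-0.51 to 0.58), and the other by 0.62 (0.05 to 1.18), with every E. coli mouse above every LPS mouse and an unadjusted p of 0.0339 (adjusted p 1.00 in limma).

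The 6 lowest genes were likewise taken from the probes called with both stimuli, and their values are a description. Id1, an inhibitor of basic helix-loop-helix factors, had -2.50, -3.42, -3.35 and -3.84 with LPS and -3.19, -3.47, -2.79 and -2.86 with E. coli, a difference of 0.20 (-0.48 to 0.87). Rgs2, a brake on G protein signalling, had -1.53, -2.17, -2.30 and -3.08 with LPS and -1.60, -2.93, -2.62 and -2.86 with E. coli. The groups overlapped for both. Gpr146, an orphan receptor, had -3.04, -2.24, -3.46 and -2.54 with LPS and -1.23, -1.47, -1.87 and -2.86 with E. coli, and 3 of 4 E. coli mice were above all LPS mice; the difference was 0.97 (0.10 to 1.83), with an unadjusted p of 0.0311 and an adjusted p of 1.00 in limma. Cnr2, the cannabinoid receptor of immune cells, had -2.04, -3.85, -4.34 and -6.49 with LPS and -2.12, -0.98, -2.53 and -3.22 with E. coli. The difference of 1.97 (0.11 to 3.82) was 1.20 without LPS mouse 4, and the E. coli call was lost without E. coli mouse 1, 3 or 4. Hhex, a homeobox factor, averaged -2.82 with LPS and -2.47 with E. coli, and its second probe -2.33 and -2.85, which turns the sign of the difference. Treml1 averaged -2.56 and -2.10, and its E. coli call was lost without E. coli mouse 1, 3 or 4.

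The probes with the smallest unadjusted p among those whose groups did not overlap are named to show how far apart single probes were; they were chosen for that separation, 0 were called, and the values are a description. Above LPS with E. coli were Chst11 (0.72, 0.34 to 1.09), Cxcl12 (2.29, 1.21 to 3.38), Slc30a6 (1.89, 0.85 to 2.93), Xrn1 (0.86, 0.37 to 1.34), Krt12 (1.89, 0.85 to 2.94), Slc7a1 (1.50, 0.62 to 2.37), Ccdc117 (1.29, 0.52 to 2.05), Myg1 (2.16, 0.83 to 3.50), Tctn3 (1.62, 0.57 to 2.68) and Fgfr1 (1.40, 0.48 to 2.31). The Cxcl12 difference was 1.29 with a dye term, and that of Tctn3 0.99 without LPS mouse 3. Second probes of Chst11 and Xrn1 gave differences of 0.05 and 0.04. Below LPS with E. coli were Magea5 (-1.42, -2.05 to -0.78), Prok2 (-1.20, -1.78 to -0.62), Gabrg3 (-1.75, -2.71 to -0.78), Ces3a (-1.15, -1.80 to -0.50), Serpina1e (-2.50, with an interval below 0), 1700010H22Rik (-1.25, -2.07 to -0.43), Lrat (-1.78, -2.96 to -0.59), Pclo (-0.60, -1.03 to -0.18), Bmx (-1.26, -2.16 to -0.36) and Spopl (-0.75, -1.33 to -0.18). The Pclo difference was -0.24 with the unswapped arrays alone. Magea5 had the smallest p of all, with 0.90, 0.05 and 0.36 in 3 LPS mice and -0.77, -0.92 and -1.26 in 3 E. coli mice. Cxcl12, a homeostatic chemokine of stromal cells, had -0.78, -1.59 and -1.05 in 3 LPS mice and 0.68, 2.09 and 0.68 in 3 E. coli mice, and neither response was called. Slc7a1, an arginine transporter, had -1.75, -0.65 and -1.08 in 3 LPS mice, where it was called lower until mouse 1 or 3 was left out, and 0.96, 0.15, 0.45 and -0.20 with E. coli. Stromal markers, of which Cxcl12 is 1, had 6 of 14 members tested; the median of the 6 ran from -0.42 to -0.11 over the LPS mice and from -0.52 to 1.26 over the E. coli mice, and their part in the Cxcl12 values was not tested.

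**Figure D3:**
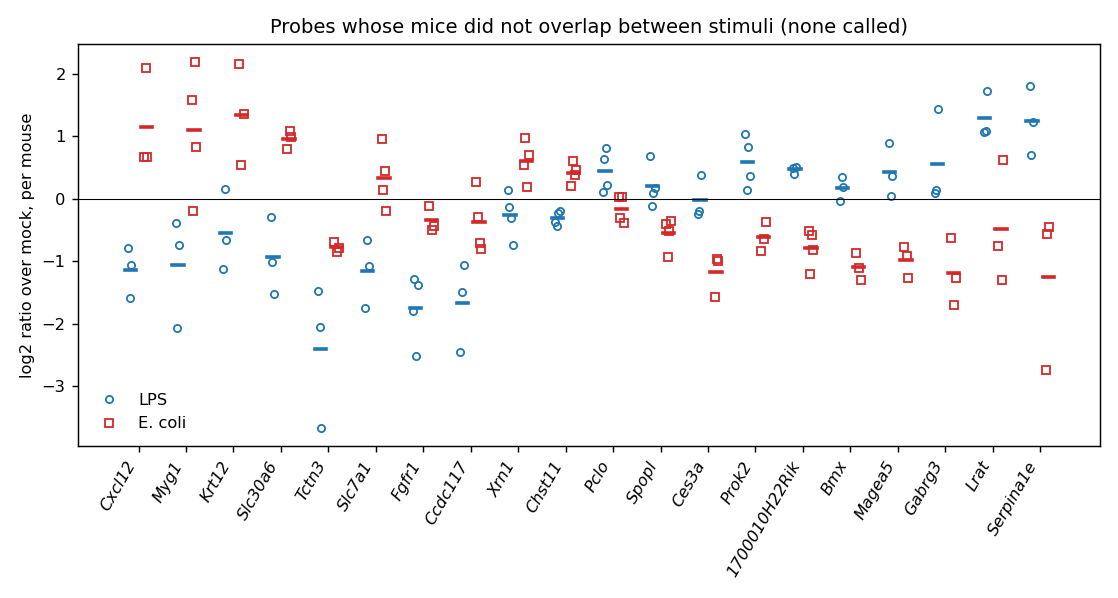
Log2 ratio over mock in each MyD88-/- mouse for the 10 probes in each direction with the smallest unadjusted p among those whose groups did not overlap; blue circles are LPS mice, red squares E. coli mice and bars their means. The probes were picked for this separation and 0 of them passed the adjusted test; Cxcl12 is on the far left with a difference of 2.29 and Serpina1e on the far right with -2.50.

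In wild-type macrophages the same subtraction gave larger values for cytokines and chemokines. The median over the 7 cytokine genes was 0.92 in wild-type and 0.12 in MyD88-/- cells, with 7 of 7 above 0 in wild type. Over the 17 chemokines tested in both genotypes it was 0.79 and 0.02, with 15 of 17 above 0 in wild type; over all probes it was 0.00 and 0.02. The wild-type median ran from 0.72 to 1.11 for the cytokines and from 0.60 to 0.89 for the chemokines over the alternatives. For Tnf the wild-type mice had 5.25, 4.56, 5.84 and 4.81 with LPS and 6.34, 6.78, 5.84 and 5.76 with E. coli. These groups overlapped, with a difference of 1.06 (0.41 to 1.72) against 0.34 (-0.31 to 0.99) in MyD88-/- cells. For Cxcl10 the wild-type mice had 5.40, 4.47, 4.38 and 4.56 with LPS and 6.84, 6.64, 6.12 and 5.75 with E. coli, a difference of 1.63 (0.81 to 2.46). For Ccl5 the wild-type difference was 1.12 (0.45 to 1.79), from 4.55, 3.92, 3.60 and 3.66 with LPS and 5.37, 5.42, 4.64 and 4.76 with E. coli. For Cxcl10 and Ccl5 every wild-type E. coli mouse lay above every wild-type LPS mouse. The interval lay above 0 in wild type for these 3 genes and included 0 in MyD88-/- cells, while the smallest adjusted p of the wild-type difference over all probes was 0.867 in limma. An interval above 0 in wild type alone does not show a difference between genotypes, which has its own test below. Without MyD88-/- LPS mouse 4 the Cxcl10 interval in MyD88-/- cells lay above 0 too (0.03 to 1.57).

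The test of the difference between genotypes called no probe. In limma, 0 of 7325 probes passed an adjusted p of 0.05 (0% called), and 207 had an unadjusted p under 0.05 (2.83%); in wild type alone the difference between stimuli was called for 0 probes too, with 281 at an unadjusted p under 0.05. The median of the genotype difference, MyD88-/- minus wild type, was -0.80 for the cytokines, with 0 of 7 above 0, and -0.80 for the chemokines, with 3 of 17 above 0, beside 0.01 over all probes. Over the alternatives it ran from -1.57 to -0.55 for the cytokines and from -0.91 to -0.61 for the chemokines. At an unadjusted p under 0.05 were 0 of the 7 cytokines and 4 of the 17 chemokines. These were Cxcl10 (-1.18, -2.35 to -0.01), Ccl5 (-1.08, -2.03 to -0.13), Ccl3 (-1.83, -3.50 to -0.16) and Ccl17 (-1.96, -3.53 to -0.40), with an adjusted p of 1.00 in limma for each. Ccl17, which attracts T helper cells, was the widest: -0.89, 0.40, 0.31 and -0.21 with LPS and 0.05, -0.14, 0.86 and 0.82 with E. coli in MyD88-/- mice, and 5.17, 2.61, 3.42 and 3.77 with LPS and 7.44, 5.99, 5.89 and 5.48 with E. coli in wild-type mice. For interferon-stimulated genes the medians were closer, 0.27 in MyD88-/- and 0.49 in wild-type cells over 47 genes, with 40 of 47 above 0 in wild type, and the genotype difference had a median of -0.19. Immediate early genes had -0.04 and 0.33 over 28 genes and the NF-kB list -0.07 and 0.23 over 21. For Il4i1 the difference was 1.91 (0.45 to 3.36) in MyD88-/- and 1.96 (0.61 to 3.31) in wild-type cells, and the genotype difference was -0.05 (-2.03 to 1.93).

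The probes with the smallest unadjusted p in the genotype test, named by that rule and not called, were higher for Usp21 (3.09, 1.51 to 4.68), Ppargc1a (3.53, 1.72 to 5.35), Ptdss2 (2.20, 1.01 to 3.38), Fgfr1 (2.18, 0.88 to 3.48) and Mptx1 (1.57, 0.62 to 2.52). They were lower for Trim34a (-1.18, -1.91 to -0.45), Cfb (-2.07, -3.36 to -0.78), Klk1b9 (-1.20, -1.97 to -0.43), Gstz1 (-1.14, -1.90 to -0.39) and Denr (-3.24, -5.44 to -1.05). Denr, a translation factor, was also among the widest differences in MyD88-/- cells, with 2.35, 1.11 and 3.75 in 3 LPS mice and -0.83, 1.14 and 0.03 in 3 E. coli mice, which overlapped, and its LPS call was lost without LPS mouse 1 or 3.

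**Figure D4:**
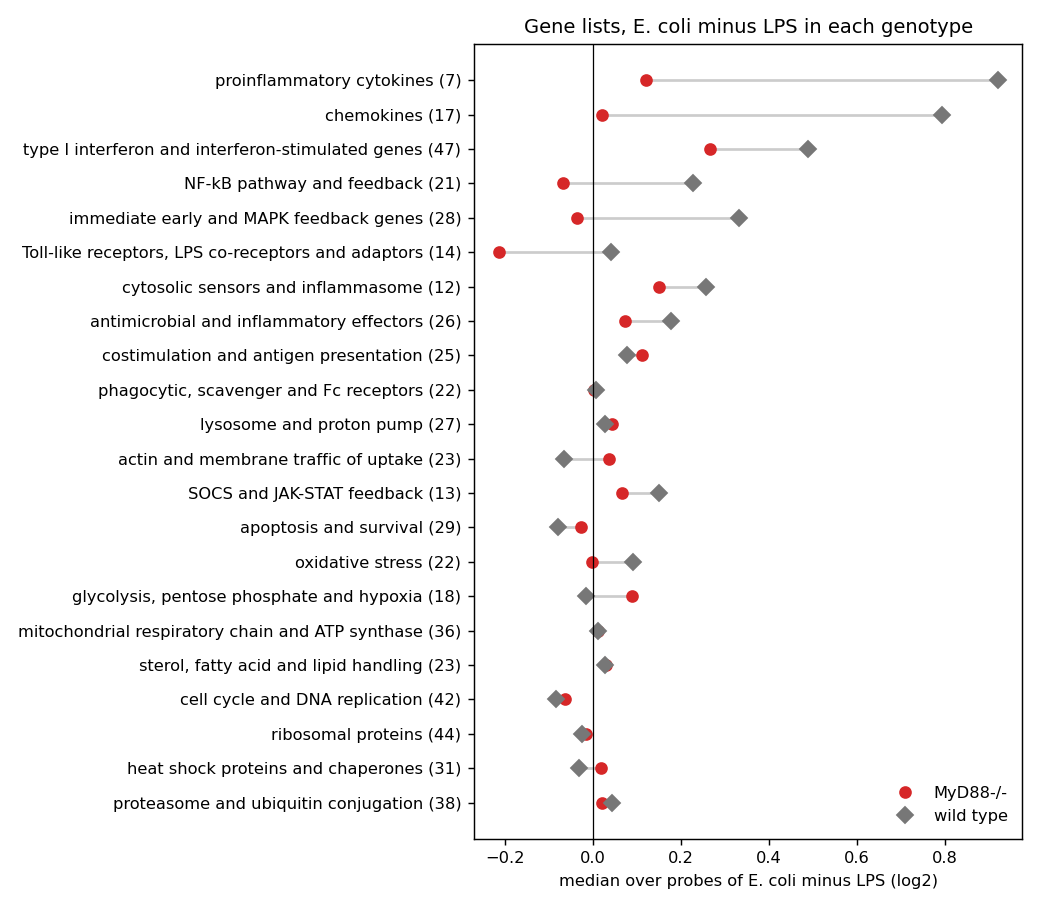
Median over the probes of each gene list of E. coli minus LPS, in MyD88-/- (red circles) and wild-type (grey diamonds) macrophages; the number of probes tested in both genotypes is in brackets. Cytokines and chemokines lie at 0.92 and 0.79 in wild type and at 0.12 and 0.02 in MyD88-/- cells, and the other lists lie closer together.

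**Figure D5:**
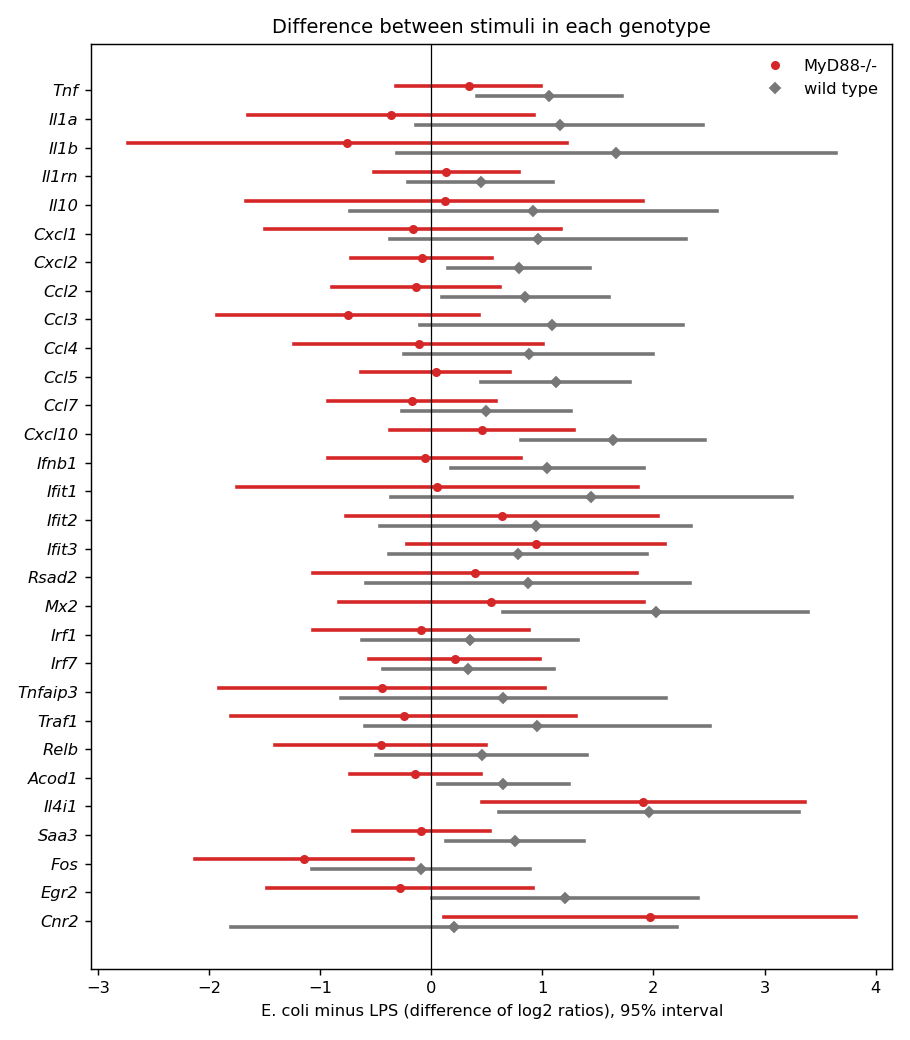
Difference of log2 ratios, E. coli minus LPS, with its 95% interval for 30 genes, MyD88-/- in red and wild type in grey. All MyD88-/- intervals include 0 except those of Il4i1, Fos and Cnr2, whose adjusted p did not pass, and most wild-type cytokine and chemokine values lie to the right of the MyD88-/- values.

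Macrophage markers had enough values for 12 of 18 genes. Msr1, a scavenger receptor, was higher with both stimuli (0.79 with LPS and 0.91 with E. coli), Lgals3 was lower with both (-0.39 and -0.38), Spi1 was higher with E. coli alone (0.45 and 0.65) and Fcgr1 lower with LPS alone (-0.47 and -0.23), a call lost without LPS mouse 1, 2 or 3. Csf1r, the CSF-1 receptor, averaged 0.19 with LPS and 0.31 with E. coli, Adgre1, the pan-macrophage surface receptor, -0.24 and -0.18, and Lyz2 -0.20 and -0.17. The interval of the difference lay within 1 log2 unit of 0 for 12 of 12, with a median of 0.09. Markers of other cells gave 2 T cell, 7 B cell, 8 neutrophil, 3 dendritic cell, 5 erythroid, 6 stromal and 4 mast cell genes with enough values. Their differences had medians of -0.39, 0.24, 0.00, 0.23, -0.26, 0.22 and 0.06, and none of these differences was called. Of their responses, Cd28 of the T cell markers was called lower with both stimuli (-1.02 with LPS and -1.25 with E. coli). Of the B cell markers 1 of 3 probes of Ighm was called higher with E. coli alone (0.51 and 0.75), and Cd79a (-1.05 and -0.38) and Ebf1 (-1.20 and 0.16) lower with LPS alone. At an unadjusted p under 0.05 were 1 of 7 B cell markers, Ebf1, and 1 of 8 neutrophil markers, Mmp8. So were 2 of 6 stromal markers in opposite directions, Pdgfrb lower and Cxcl12 higher with E. coli than with LPS. Among the T cell, dendritic cell, erythroid and mast cell markers there were 0. The share over all probes was 2.56%. The median per mouse ranged from -0.68 to 0.17 in the LPS and from -0.25 to 0.26 in the E. coli mice for the B cell genes. A ratio over mock does not show how many such cells were present, and their part in the differences was not tested.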

How the data were processed

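Bone marrow-derived macrophages of 4 MyD88-/- mice for each stimulus were measured on 15 two-colour spotted arrays, and 16 arrays of wild-type cells shared the estimate of the spread. The deposited values are log2 ratios made by the authors; per the labels' protocols the arrays were scanned with GenePix instruments and handled in BASE and GeneSpring. How they were normalized and which channel is the numerator are not given in the sources used here, and the files hold no spot intensities. Values at log2 of 0.01 (-6.644, a floor, 1.34% of the MyD88-/- values) were set to missing, and the dye orientations were averaged per mouse and stimulus.

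Probes with values in 3 or more mice of both MyD88-/- groups were fitted over 16 mouse-level ratios with 1 coefficient per genotype and stimulus in limma 3.58.1 (R 4.3.3, lmFit and eBayes). All p-values were 2-sided and adjusted over all probes tested with Benjamini-Hochberg, with calls at an adjusted p under 0.05; adjusted p-values in the text are from this fit, and intervals are 95% intervals from its moderated standard errors. The code was tested on simulated data. Probes were named through the platform annotation: 11480 of 13872 had 1 symbol, 50 several and 2342 none, and 11437 matched RefSeq by Entrez ID. Figures were drawn with Python 3.11.15 and matplotlib 3.10.9.

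The mice of both stimuli carry numbers 1 to 4 in the labels, which do not state that a number is 1 animal in both. Deviations of same-numbered mice from their group means correlated between -0.0542 and 0.125 over probes. Once group means were fitted, the arrays of 1 mouse correlated by only 0.115. These values therefore cannot decide whether the numbers pair the mice. The main fit did not pair them, and mouse number as a block is an alternative.

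The comparison, the gene lists and the markers were chosen with earlier results of these data known. Named genes follow a rule: called probes of the difference, filled to 10 in each direction by the smallest unadjusted p among probes with no overlap; 5 in each direction for the genotype test; the 12 highest and 6 lowest of the probes called with both stimuli; 3 of each list by p; and fixed genes. Other genes were named after their values were seen. Alternatives covered leaving out each mouse, centring and scaling of arrays, the floor, the mouse filters, the unswapped arrays alone, a dye term, MyD88-/- mice alone, robust variances and mouse number as a block.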

Additional observations from a re-analysis of the deposited data

Results flagged for a closer look

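In 10 of 212 groups of 4 mice looked at, 1 mouse lay apart from the other 3 by a gap test at its 95% critical value, and chance flags about 1 in 20 groups. LPS mouse 4, measured on 1 array, was the mouse in 5 of the 10. It had 0.86 for Ccl4, with the others at 3.13 to 3.40, and 0.87 for Il1rn, with the others at 1.92 to 1.99. It had 2.80 for Ly86, with the others at -0.13 to 0.05, and 0.51 for Gpx1, an antioxidant enzyme, with the others at -0.10 to -0.03. For Dnm2, a membrane scission GTPase, it had -2.48, with the others at -0.45 to -0.11. LPS mouse 3 had 1.49 for Ifnb1, with the others at -0.16 to 0.05. Of the E. coli mice, mouse 1 had -1.84 for Hhex, with the others at -2.73 to -2.59, and mouse 2 had 2.11 for Irf7, with the others at 0.63 to 0.76. E. coli mouse 3 had 0.62 for Nampt, which makes a NAD precursor, with the others at 0.78 to 0.81, and mouse 4 had 4.52 for Il1a, with the others at 2.20 to 2.59. Their causes were not tested.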

How the results depend on the processing

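The count of probes called for E. coli minus LPS was 0 under all 26 alternatives, and that for its difference between genotypes was 0 under the 25 that could be run with wild-type mice. Of 3389 values of named probes under the alternatives 0 were called for the difference, and 81 had another sign, 4 of them of values over 0.5 in size. The E. coli response count ran from 484, without E. coli mouse 2, to 813 when 1 mouse at a time was left out, and the LPS response count kept within 1.5 times its value under every alternative. With mouse number as a replicate block 0 probes were called for the difference (354 at an unadjusted p under 0.05, smallest adjusted p 0.521), 604 for E. coli and 555 for LPS. The numbers are neither shown to pair the mice nor shown not to, and 3 of 8 mice correlated best with their own number. Over the alternatives 0 of 780 list medians moved by more than their spread. That spread is the one between single mice, which leaving out 1 mouse can hardly exceed, so that the count does not show stability. The sign of the median changed in 10 of 26 alternatives for the cytokines. It changed in 5 for the NF-kB list, in 5 for the immediate early genes and in 0 for the interferon-stimulated genes. The spread between mice and the single array of LPS mouse 4 limit the precision, and the intervals show what size of difference each probe could hold.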

Other observations

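Some inducible genes had values in too few mice to be tested. Nos2, the inducible nitric oxide synthase, had -0.12 and -0.29 in 2 LPS mice and 0.12, 0.43, 0.74 and 0.52 in the 4 E. coli mice. Ptgs2, the inducible cyclooxygenase, had 1.43 and 1.71 in 2 LPS mice and 3.41, -0.25 and 0.94 in 3 E. coli mice. Il12b, a subunit of interleukin 12, had -0.66 and 3.72 in 2 LPS mice and 1.71, 1.11 and -2.95 in 3 E. coli mice, and Isg15, a ubiquitin-like interferon-stimulated gene, had -3.31 and -0.05 in 2 LPS mice and 0.90, 0.42 and -0.71 in 3 E. coli mice.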
